A study of Mus musculus with 183 samples.

Results

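The mRNAs described here encode 37 proteins of DNA replication and S phase. They are listed by symbol for their known roles, by a rule that uses no measured value although earlier results of these data were known, and all 37 were found among the 53380 genes of the half-life count table and among the 7240 mRNAs of the table of relative CRAC binding. They comprise the replicative helicase subunits Mcm2 to Mcm7, the loading and firing factors Orc1, Orc6, Cdc6, Cdt1, Mcm10, Cdc45 and Gins1 to Gins4, the polymerase genes Pola1, Pola2, Prim1, Pole and Pold1, the sliding clamp Pcna with its loader Rfc1 to Rfc5, the fragment joining enzymes Fen1 and Lig1, the nucleotide supply enzymes Rrm1, Rrm2, Tyms and Tk1, the chromatin assembly subunits Chaf1a and Chaf1b, and the cyclin E genes Ccne1 and Ccne2. The question was whether these polyadenylated mRNAs moved with the histone mRNAs, which are made in the same phase of the cell cycle, when Skiv2l was deleted.

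The libraries for levels and decay came from 2 mouse embryonic stem cell (mESC) clones grown in serum and LIF on gelatin. Clone 5F was Skiv2l fl/fl. Clone 7E is labelled Aven-/- with 3xFLAG-Avi-tagged Skiv2l, and was also Skiv2l fl/fl by the study's list of cell lines. That list also gives BirA at Rosa26 for the Aven-/- Skiv2l fl/fl lines, and not for the Skiv2l fl/fl lines with Aven intact. In both clones CreERT2 was expressed from the Rosa26 locus, so that 0.1 µM 4-hydroxytamoxifen (4OHT) recombines the loxP sites, and each clone was sampled without 4OHT (day 0) and at day 4 of 4OHT. At each day cells received DMSO for 360 min (mock, used as time 0) or actinomycin D, which blocks transcription, for 120, 240 or 360 min. The dose of actinomycin D is 5 µg/µl in the labels and 5 µM in the study's methods. There were 47 libraries in 16 groups, of which 15 held 3 libraries and clone 5F at day 0 and 120 min held 2. The CRAC ratios came from other mESC lines, in which Mtr4, Skiv2l, Xrn1 or Aven carried a tag on both alleles and Rosa26 held CreERT2 and BirA. The tag was 3xFLAG-Avi for Skiv2l, Xrn1 and Aven, with 1 line each. For Mtr4 the study lists 2 lines, 1 with a 1xFLAG-Avi and 1 with a 3xFLAG-Avi tag, and its MTR4 data include 3 published datasets. Apart from Mtr4, each genotype is 1 clone, so genotype and clone cannot be told apart, and the replicates are technical by the study's account, so p-values measure only the spread between these samples.

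Replication genes are transcribed together from late G1 onwards, largely under E2F transcription factors. The Mcm2 to Mcm7 ring is loaded on origins by the origin recognition complex with Cdc6 and Cdt1, and is switched on with Cdc45 and the GINS proteins when cyclin E and other kinases fire the origins. Replication-dependent histone mRNAs are made in the same hours but end in a conserved stem-loop that binds Slbp, instead of a poly(A) tail, and are lost quickly when DNA synthesis stops. SKIV2L is the helicase of the cytoplasmic Ski complex, which feeds mRNAs to the exosome for 3′ to 5′ decay. XRN1 is the cytoplasmic 5′ to 3′ exonuclease, MTR4 is a helicase of the nuclear exosome, and AVEN was studied as a partner of this pathway on RNA.

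The 3′ ends show how the compared classes differ. A poly(A) signal (AATAAA or ATTAAA) lay in the last 50 bases of the annotated transcript for 28 of the 37 replication mRNAs (75.7%), against 77.9% of all mRNAs matched and 24.0% of 50 histone mRNAs. The histone stem-loop consensus was found anywhere in the transcript in 0 of the 37 and in 37 of the 50 histone mRNAs (74.0%), against 0.996% of all mRNAs. Both searches read only the transcript strand. The sequences shown are those of mRNAs named in the results, taken only from mRNAs in which the motif was found. Named mRNAs without a signal in the last 50 bases include Cdc6, Pole and Tyms. No stem-loop consensus was found in the annotated transcripts of Hist1h1a and Hist1h1b. The sequences are given 5′ to 3′ on the transcript strand in GRCm38, with the signal or the stem-loop in capitals. Mcm6 had the only change in decay that passed the test, Ccne1 the only day 4 change that differed between the clones, Rrm1 bound SKIV2L strongly, and Cdt1 and Rfc2 were the shortest and the longest lived.
Mcm6 (chr1:128331590-128331619, minus strand): cccatgaaAATAAAacaacttgttctgtga
Ccne1 (chr7:38097984-38098013, minus strand): atttttAATAAAgataatactatctttgaa
Rrm1 (chr7:102469742-102469771, plus strand): ttatgaaactcatAATAAAtctgctttacg
Cdt1 (chr8:122573099-122573128, plus strand): gtaagatttaAATAAAatactactgagatg
Rfc2 (chr5:134601773-134601802, plus strand): tggtttATTAAAttttcttatctgttttat
Hist1h1d (chr13:23555781-23555810, plus strand): tcaaacGGCTCTTTTCAGAGCCacccacaa
The Hist1h1d stem-loop lay 4884 bases before the end of its long annotated transcript. The 3′ untranslated region had a median length of 474 bases among the replication mRNAs, against 94.5 bases among the histone mRNAs and 993.5 bases among all mRNAs of the table.

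Total counts ranged from 24440935 to 34114250 per library. The library labels were checked with the targeted genes, whose counts cover both the deleted and the retained exons. In the mock libraries of clone 7E Skiv2l fell from 968, 1038 and 903 normalised counts at day 0 to 406, 389 and 368 at day 4, a log2 difference of -1.32 (edgeR adjusted p = 7.78e-13). In clone 5F it was at 4150, 4136 and 4205 at day 0 and at 4415, 3825 and 4162 in the libraries labelled day 4, which overlap (log2 difference -0.00995, edgeR adjusted p = 0.914), so these libraries are called by their label throughout. Aven was at 66.9 ± 16.5 in clone 7E and 1004 ± 6.86 in clone 5F at day 0 (SD, n = 3). In clone 7E the mock libraries of day 4 also held 189084 to 200706 ERCC spike-in counts, against 88231 to 93255 at day 0, and 7 of 8 embryonic stem cell markers fell there while all 4 tested of 5 trophoblast markers rose. The summed stem cell markers went from 95522 to 98677 normalised counts at day 0 to 81964 to 84783 at day 4, and the summed trophoblast markers, mostly Krt8 and Krt18, from 2191 to 2248 up to 5894 to 6901. The part of these shifts in the results was not tested. In clone 5F 3 stem cell markers fell and 2 rose, and the summed markers were 92594 to 92966 at day 0 and 86564 to 89957 in the libraries labelled day 4. The epiblast-like markers summed to 2158 to 2300 at day 0 and 1488 to 1819 at day 4 in clone 7E, where the fibroblast markers summed to 66.5 to 81.1 and 159 to 201, with 3 of 4 tested called higher. The epiblast-like markers went both ways there, with 1 of 4 called higher and 2 lower. In clone 5F the summed primitive endoderm markers went from 3095 to 3294 at day 0 to 2523 to 2585 in the libraries labelled day 4, and the summed fibroblast markers from 162 to 189 up to 236 to 269.9. Of the primitive endoderm markers 1 of 6 was called higher and 2 lower, and of the fibroblast markers 2 of 4 tested were called higher and 0 lower. The summed trophoblast markers of clone 5F also went from 3648 to 4128 up to 4198 to 4963, with 1 of 4 tested called higher. In clone 7E the summed primitive endoderm markers went from 385 to 436 up to 525 to 544, with 2 of 6 called higher. Over all genes tested, 12.8% were called higher and 11.6% lower in clone 5F, and 20.7% and 19.4% in clone 7E.

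All 37 replication mRNAs were well expressed in mock cells and passed the filter on low counts in every comparison. Per kilobase of annotated transcript, Mcm6 and Mcm3 stood highest in clone 5F at day 0, at 8712 ± 229 and 8481 ± 129 normalised counts per kilobase (SD, n = 3), and these neighbours did not differ beyond their spread. Mcm5 followed with 7692 ± 197, then Ccne1 with 6184 ± 132 and Mcm2 with 5134 ± 165. Among the other helicase subunits, Mcm7 was at 3985 ± 124 and Mcm4 at 3652 ± 41.5 per kilobase, so the 6 subunits of the ring differed in mRNA level. At the low end, Ccne2, Gins2 and Gins3 were at 310 ± 16.7, 285 ± 12.3 and 280 ± 21.0 per kilobase, and the last 2 did not differ beyond their spread. The histone Hist1h1a, an H1 linker histone gene, stood above every replication mRNA, at 25152 ± 784 per kilobase. Hist1h1b was at 14990 ± 375. Hist1h1d, with an annotated transcript of 7425 bases, was at 1682 ± 56.5 and below many of them. The values per kilobase depend on the annotated length.

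In mock cells of clone 5F, replication mRNAs did not rise with the histone mRNAs in the libraries labelled day 4. Of the 37, 14 fell and 2 rose, with a median log2 difference of -0.068, whereas 56 of the 61 tested histone genes (70 listed) rose and 0 fell, with a median of 0.69. Over all 16349 genes tested, 12.8% were called higher and 11.6% lower, with a median of -0.00499. In bulk libraries, fewer cells in S phase and less RNA per cell cannot be told apart. By role, the mRNAs that fell were both cyclin E genes, the loading and firing factors Cdc6, Gins1 and Gins3, the clamp Pcna with Rfc3, Rfc4 and Rfc5, the nucleotide enzymes Rrm1, Rrm2 and Tk1, the flap nuclease Fen1 and the helicase subunit Mcm5. The mRNAs that rose were Pole and Pold1, which encode the catalytic subunits of the leading and lagging strand polymerases.

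Cdc6, the loader of the helicase, showed the largest fall in clone 5F. Its 3 libraries held 2824, 2822 and 2928 normalised counts at day 0 and 2281, 2268 and 2243 when labelled day 4. All libraries labelled day 4 lay below all of day 0, and the log2 difference was -0.34 (SE 0.046, edgeR adjusted p = 1.86e-05). Groups without overlap were common in clone 5F, with 17.2% of all 18623 genes lower in this way and 17.8% higher. Of the 37 replication mRNAs, 16 were lower and 3 higher without overlap. Ccne2 was at 916, 891 and 988 at day 0 and at 715, 856 and 731 when labelled day 4, also without overlap, with a log2 difference of -0.28 (SE 0.071, edgeR adjusted p = 0.00630). Gins1, a GINS subunit, fell from 1291, 1248 and 1330 to 1101, 1042 and 1070, a log2 difference of -0.27 (SE 0.056, edgeR adjusted p = 0.00137). Pole moved the other way, from 5525, 5767 and 5583 to 7264, 7297 and 7226. Its groups did not overlap and it rose by 0.37 on the log2 scale (SE 0.042, edgeR adjusted p = 1.98e-06). Pold1 rose from 3812, 4221 and 3948 to 5247, 4679 and 5445, by 0.36 (SE 0.054, edgeR adjusted p = 5.79e-05). Rrm1, the large subunit of ribonucleotide reductase, held 9553, 9165 and 9953 at day 0 and 8428, 8254 and 7895 when labelled day 4, a log2 difference of -0.22 (SE 0.045, edgeR adjusted p = 0.00116).

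The abundant members of the remaining roles did not pass the test in clone 5F. Mcm3 had a log2 difference of -0.022 (SE 0.043), Mcm10, which acts in firing, -0.089 (SE 0.042), Rfc1, the large loader subunit, -0.011 (SE 0.044), the ligase gene Lig1 0.073 (SE 0.042) and Chaf1a, the large subunit of chromatin assembly factor CAF-1, -0.070 (SE 0.047). Hist1h1a went from 17974, 19052 and 18887 to 42195, 38021 and 41598, a log2 difference of 1.12 (SE 0.048, edgeR adjusted p = 4.44e-13). The largest difference of any replication mRNA was therefore smaller than the histone median. The count of 16 called replication mRNAs rested on all 3 replicate numbers: it was 6 without replicate 1 and 4 without replicate 3.

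In clone 7E the mock levels of day 4 gave a like picture for the replication mRNAs. Of the 37, 14 fell and 4 rose, with a median log2 difference of -0.087, against 19.4% lower and 20.7% higher over all 16333 genes tested and a median of -0.00838. Of the histone genes, 38 of 61 rose and 0 fell, with a median of 0.28, but scaled by each library's own ERCC total 3 were called higher and 54 lower. That scaling shifted the median over all genes by -1.10, and all 37 replication mRNAs were then called lower. Relative to the median of all genes, the replication mRNAs had a median of -0.079 with the size factors and -0.080 with the ERCC totals, and the histone genes had one of 0.29 with either. Without replicate 1 the counts were 8 replication mRNAs and 25 histone genes.

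The roles that fell in clone 7E were the helicase subunits Mcm4, Mcm6 and Mcm7, the loading and firing factors Cdc6, Gins1, Gins3 and Mcm10, Pcna with Rfc4, Fen1, Rrm1 and Tk1, Chaf1b and Ccne1. Ccne1 fell most, from 8998, 8390 and 9235 normalised counts at day 0 to 6532, 6503 and 6980 at day 4, with no overlap and a log2 difference of -0.41 (SE 0.048, edgeR adjusted p = 2.98e-07). Gins1 fell from 1191, 1213 and 1346 to 981, 1042 and 899, by 0.36 on the log2 scale (SE 0.067, edgeR adjusted p = 0.000131). Cdc6 held 2605, 2379 and 2644 at day 0 and 2158, 1981 and 1832 at day 4, a log2 difference of -0.35 (SE 0.061, edgeR adjusted p = 5.28e-05). None of these 3 genes had overlapping groups, which in clone 7E held for 22.3% of all 18623 genes as lower and 23.1% as higher. Of the 37 replication mRNAs, 17 were lower and 3 higher without overlap. Pole, Cdt1, Orc1 and Pold1 were called higher, a direction that held for none of them under each library's own ERCC total. Pole rose from 6107, 6218 and 5998 to 7166, 7136 and 7415, by 0.25 (SE 0.045, edgeR adjusted p = 0.000108), and was at -0.85 under that scaling. Cdt1, which loads the helicase and is restrained by Gmnn, rose by 0.17 (SE 0.052, edgeR adjusted p = 0.0113), with 4868, 5376 and 5277 at day 0 and 5971, 5417 and 6090 at day 4, and was at -0.93. Pold1 was at 3478, 3762 and 3904 against 4119, 3730 and 4654, which overlap, with a log2 difference of 0.17 (SE 0.063, edgeR adjusted p = 0.0382) that was at -0.93 under that scaling and lost its call in DESeq2 (adjusted p = 0.0587).

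Among the abundant members of the other roles, Mcm3 had a log2 difference of -0.068 (SE 0.043) and Rfc1 of -0.036 (SE 0.045) in clone 7E, and neither passed the test. Mcm10 fell from 5861, 5578 and 5810 to 5105, 4792 and 4502, a log2 difference of -0.26 (SE 0.050, edgeR adjusted p = 0.000204). Rrm1 fell from 10624, 9972 and 10723 to 8494, 8920 and 8186, by 0.29 (SE 0.047, edgeR adjusted p = 2.71e-05). Both had groups that did not overlap. Across the clones, 9 replication mRNAs were called lower in both (Ccne1, Cdc6, Fen1, Gins1, Gins3, Pcna, Rfc4, Rrm1 and Tk1), Pole and Pold1 were called higher in both (in clone 7E not under each library's own ERCC total), 0 were called in opposite directions and 14 were called in neither. Over all genes, 11.6% were called lower in clone 5F and 19.4% in clone 7E, and 12.8% and 20.7% higher. The share of all genes called alike in both clones is not given here, so these counts have no such background.

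**Figure D1:**
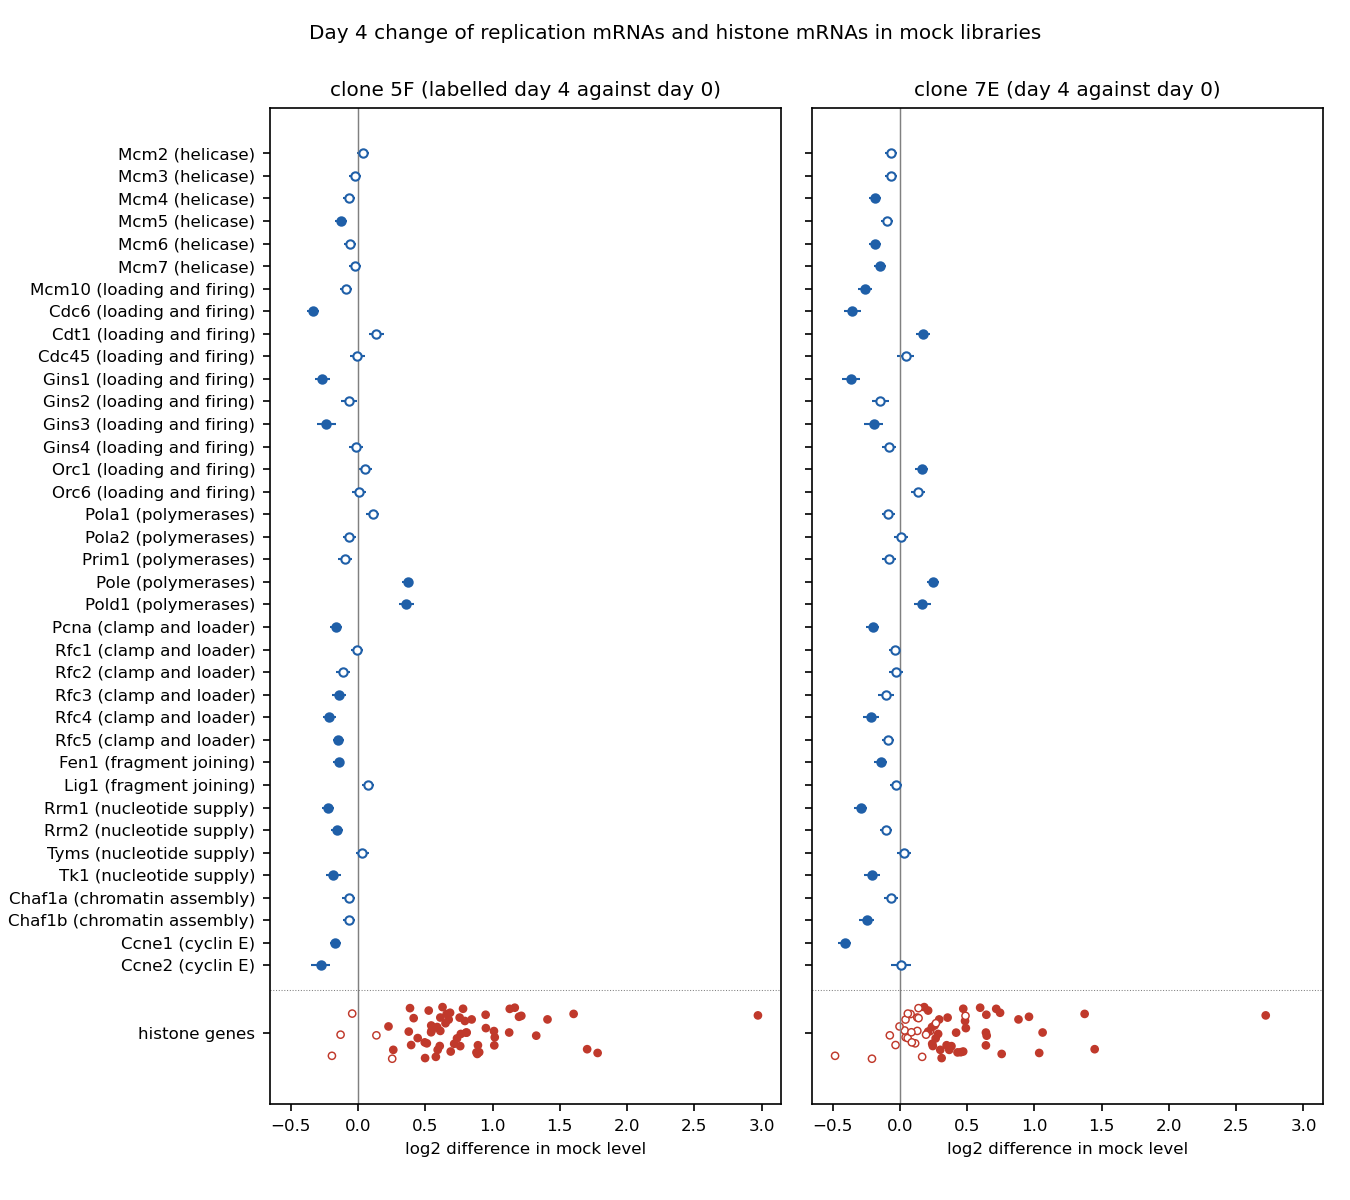
Log2 difference in mock level of day 4 against day 0 for each of the 37 replication mRNAs (blue, grouped by role, bars are ± SE) and for 61 histone genes (red, 1 point per gene, spread vertically for clarity) in clone 5F, left, and clone 7E, right, with filled points passing an edgeR adjusted p of 0.05. The replication mRNAs lie between -0.41 and 0.37, with histone medians at 0.69 and 0.28, and under each library's own ERCC total the clone 7E panel is shifted by -1.10 as a whole.

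**Figure D2:**
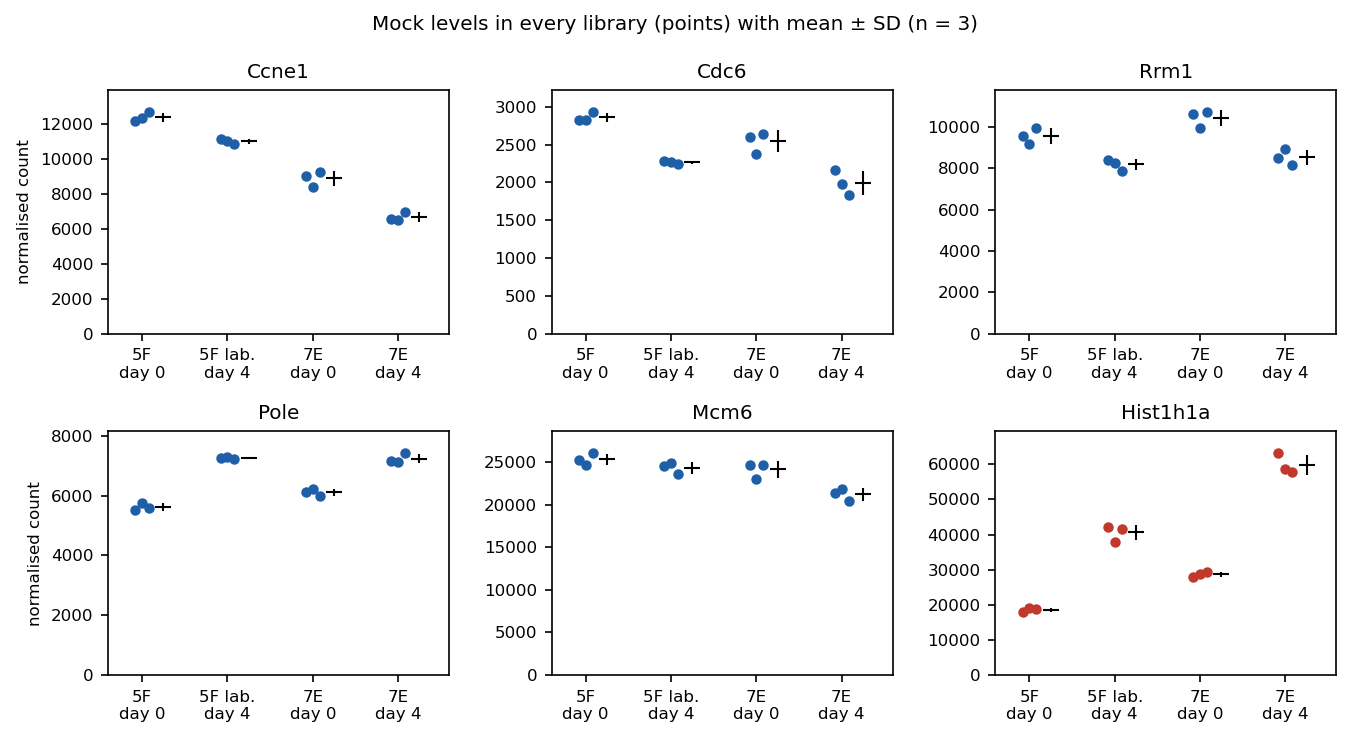
Normalised counts in each mock library (points) with mean ± SD (n = 3) for Ccne1, Cdc6, Rrm1, Pole, Mcm6 and Hist1h1a by clone and day, with axes from 0 and the clone 5F libraries named by their label (lab.). Ccne1, Cdc6 and Rrm1 lie lower at day 4 in both clones and Pole and Hist1h1a higher, and in clone 7E the rise of Pole and Hist1h1a did not hold under each library's own ERCC total.

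The clones themselves differed at day 0, and Skiv2l was already lower in clone 7E before 4OHT, by a log2 difference of -2.10 (edgeR adjusted p = 3.84e-18). In clone 7E against clone 5F, 8 replication mRNAs were higher and 10 lower, against 18.1% in each direction over all 17209 genes tested, and the median was -0.045. Leaving out replicate 1 lowered the count of 18 to 11, and each library's own ERCC total raised it to 29, with a shift of all genes by -0.16. Of the histone genes, 49 of 61 were higher and 0 lower, with a median of 0.45. Gins3 was highest relative to clone 5F, at 1058, 981 and 1046 normalised counts against 684, 669 and 767, a log2 difference of 0.54 (SE 0.069, edgeR adjusted p = 1.02e-06). Gins4 was higher by 0.45 (SE 0.048, edgeR adjusted p = 7.69e-08) and Mcm5 by 0.41 (SE 0.041, edgeR adjusted p = 3.16e-08), while the GINS subunit gene Gins2 was lower by a log2 difference of -0.29 (SE 0.059, edgeR adjusted p = 0.000342). The genes of a 4-part complex thus differed in both directions between the clones. Ccne1 was lowest, at 8998, 8390 and 9235 in clone 7E and 12132, 12321 and 12654 in clone 5F, a log2 difference of -0.48 (SE 0.043, edgeR adjusted p = 4.08e-09), and Rfc4 was lower by -0.28 (SE 0.051, edgeR adjusted p = 0.000143). The primitive endoderm markers, all 6 of which were lower in clone 7E, summed to 385 to 436 normalised counts there and to 3095 to 3294 in clone 5F at day 0. Their part in these differences was not tested.

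The day 4 change differed between the clones for 1 replication mRNA and for 28 histone genes, all in the lower direction, against 5.29% of all genes lower and 6.65% higher. That mRNA was Ccne1, whose change was lower in clone 7E by a log2 difference of -0.24 (SE 0.061, edgeR adjusted p = 0.00966). The median difference over the 37 was -0.022 and over the histone genes -0.38. Under each library's own ERCC total all 37 replication mRNAs and all 61 histone genes were called lower, with all genes shifted by -1.03. The histone count was 12 without replicate 3, and the Ccne1 call was lost without replicate 1 (edgeR adjusted p = 0.287).

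After transcription was blocked, the 37 replication mRNAs were lost slowly and histone mRNAs fast. At day 0 of clone 5F a median of 74.4% of the mock level of the replication mRNAs was left at 120 min and 50.7% at 360 min, against 0.742% and 0.360% for the histone genes. Fitted half-lives of the 37 had medians of 371 min in clone 5F at day 0, 355 min in the libraries labelled day 4, 368 min in clone 7E at day 0 and 312 min at day 4. The corresponding medians were 49.1, 78.5, 48.2 and 79.8 min for the histone genes, and 285, 288, 281 and 285 min over all genes tested. In clone 5F at day 0 the 51 other replication genes described below had a median of 283 min and the 20 mitotic genes one of 291 min. In that set the longer median was thus that of the 37 and not of the other replication genes listed. In clone 7E at day 4 the medians were 312 min for the 37, 275 min for the 51 and 298 min for the mitotic genes. Long half-lives also did not hold for every role of the 37. The loading and firing factors had a median of 190 min in clone 5F at day 0. Most of the histone loss at day 0 came before 120 min, and the line described it poorly (r2 of 0.745 for Hist1h1a in clone 5F), so histone half-lives and their ratios are values of the line and not of that early loss. In clone 5F at day 0, 13 of the 37 were shorter lived than the median gene, and so were all 61 histone genes.

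The range within the class was wide and differed by role. Cdt1 was the shortest lived, with half-lives of 97.9 ± 3.35 min at day 0 and 93.6 ± 3.61 min when labelled day 4 in clone 5F, and 107 ± 3.38 and 111 ± 5.45 min in clone 7E (± SE of the fit). Its normalised counts in clone 5F at day 0 went from 4317, 4887 and 4472 in mock to 396, 353 and 293 at 360 min. Cdc6 followed with 122 ± 5.51 min and Chaf1a with 126 ± 5.15 min in clone 5F at day 0, and these neighbours did not differ beyond their errors. Rfc2, a small subunit of the clamp loader, was the longest lived, at 919 ± 206 min in clone 5F at day 0 and 623 ± 75.0 min in clone 7E at day 4, where its counts of 2338, 2354 and 2474 in mock had fallen to 1461, 1588 and 1748 at 360 min. Its errors overlap those of the next, Pola1, at 741 ± 125 min in clone 5F at day 0. In clone 5F at day 0 the loading and firing factors had a median of 190 min, and Chaf1a and Chaf1b stood at 126 and 349 min, against 395 min for the helicase, 473 min for the clamp and loader and 534 min for the polymerases. The 6 helicase subunits spanned only 305 to 452 min. Across the 37 mRNAs the order of half-lives was alike in all conditions, with Spearman correlations of 0.862 to 0.977 between any 2 of the 4 sets (n = 37 mRNAs, which share their libraries).

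**Figure D3:**
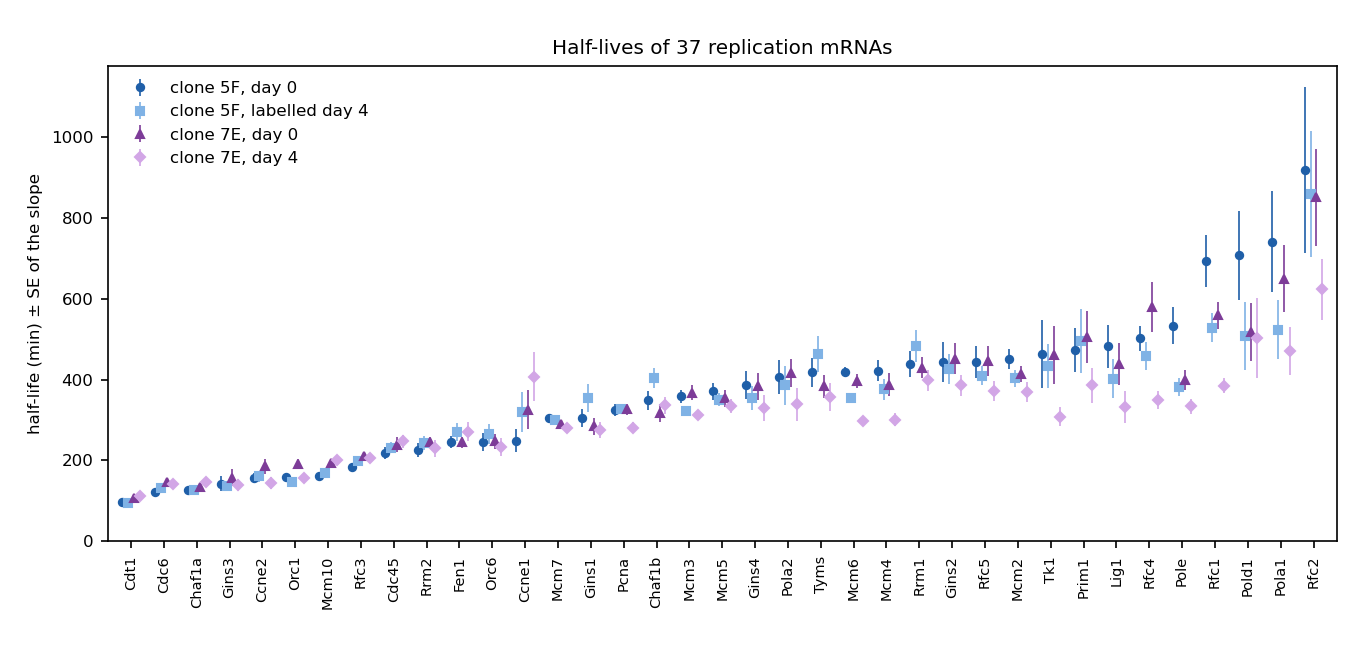
Half-lives in min (± SE of the fit) of the 37 replication mRNAs, ordered by clone 5F at day 0, with 1 symbol for each clone and day. Cdt1 stands at the short end, between 93.6 and 111 min in the 4 sets, and Rfc2 at the long end, between 623 and 919 min.

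No change in the decay of the replication mRNAs was called in clone 5F, where histone mRNAs were called slower. The change is given as the log2 difference in slope per hour, positive where loss was slower in the libraries labelled day 4. Of the 37, 0 passed the edgeR test in either direction, 3 had an unadjusted p under 0.05, and DESeq2 and limma each called 0. Over all 17901 genes, 0.134% were called slower and 0.067% faster, and 697 had an unadjusted p under 0.05. The 37 values lay between -0.045 and 0.053 log2 per hour, with SEs of 0.0096 to 0.055 and a median of -0.00519, and a count of 0 does not show that decay was unchanged by amounts of this size. Of the 61 histone genes 20 were called slower and 0 faster, with a median of 0.75 log2 per hour. Hist1h1a was slower by 0.97 (SE 0.17, edgeR adjusted p = 0.00948). The histone count fell to between 2 and 3 when any replicate number was left out and to 0 in limma, and without the mock libraries the direction turned, with Hist1h1a at -0.18. In half-lives, 16 replication mRNAs were longer and 21 shorter in the libraries labelled day 4, with a median ratio of 0.956. Over all genes tested, 9799 were longer and 8733 shorter, with a median ratio of 1.01. Of the histone genes, 57 were longer and 4 shorter, with a median ratio of 1.49.

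In clone 7E the calls of the replication and the histone mRNAs again went apart. Here 1 of the 37 was called faster and 0 slower, against 0.551% and 0.436% over all 17417 genes, and 7 had an unadjusted p under 0.05. The 37 values lay between -0.095 and 0.037 log2 per hour, with a median of -0.023, and 7 were above 0. Of all 17417 genes, 1574 had an unadjusted p under 0.05 and 8485 were above 0. The histone genes had 29 of 61 called slower and 0 faster, with a median of 0.68. That count was 5 to 9 without any replicate number, 6 in limma and 11 without the mock libraries. The called mRNA was Mcm6, with a difference of -0.050 log2 per hour (SE 0.011, edgeR adjusted p = 0.0250). Its mock counts were 24721, 23047 and 24680 at day 0 and 21442, 21902 and 20407 at day 4, and at 360 min they were 12694, 12906 and 13268 at day 0 and 9238, 8629 and 9469 at day 4. No day 4 library reached the day 0 libraries at either time. In mock libraries of clone 7E this held for 22.3% of all 18623 genes, and the share at 360 min is not given here. Such gaps describe levels and are not a test of decay. The half-life of Mcm6 went from 397 ± 17.6 to 298 ± 9.79 min. The call was kept by limma and by DESeq2, which also called Rfc1 and Rfc4 faster, and it was lost under TMM scaling, under each library's own ERCC total, without the filter on low counts, and without any 1 replicate number or the mock or 360 min libraries. In half-lives, 7 replication mRNAs were longer and 30 shorter at day 4, with a median ratio of 0.884, against a median ratio of 0.992 over all genes tested and 1.55 for the histone genes, of which 57 were longer. Over all genes tested, 8951 half-lives were longer and 9636 shorter there. The median half-life of the 37 at day 4 was 312 min, and 352 min under each library's own ERCC total.

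The loss up to 120 min, tested without assuming a straight line over time, separated the classes further. In clone 5F, 0 of the 37 replication mRNAs were called in either direction by edgeR, DESeq2 or limma, and 0 had an unadjusted p under 0.05, against 0.318% of all genes higher and 0.0391% lower. Of all 17901 genes, 1055 had an unadjusted p under 0.05 there. The 37 values had SEs of 0.066 to 0.20, so a count of 0 does not show that the early loss was unchanged. The median log2 difference of the 37 in the share left was 0.030, while 49 of 61 histone genes had more left and 0 less, with a median of 3.51. Hist1h1a had 0.670% of its mock level left at day 0 and 42.9% in the libraries labelled day 4, a log2 difference of 6.00 (SE 0.18, edgeR adjusted p = 2.79e-16). Mcm6 went from 25309, 24711 and 26038 in mock to 21122 and 21158 at 120 min of day 0, and from 24570, 24853 and 23570 to 20252, 20019 and 19266 when labelled day 4, so that 83.4% and 81.6% were left.

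In clone 7E, 0 of the 37 replication mRNAs were called for a change in the 120 min loss by edgeR, DESeq2 or limma, 9 had an unadjusted p under 0.05, and 0.821% of all genes were higher and 0.568% lower. An unadjusted p under 0.05 was held by 2248 of all 17417 genes. The median of the 37 was -0.080, below the median of -0.022 over all genes. It was -0.085 for the 20 mitotic genes and -0.091 for the 51 other replication genes, so this was not particular to the 37. Again 49 of 61 histone genes had more left and 0 less, with a median of 2.37, and Hist1h1a went from 5.69% to 42.7% left. Under each library's own ERCC total the median over all genes was shifted by -0.18 in clone 5F and by 0.21 in clone 7E, and relative to it the replication mRNAs had medians of 0.031 and -0.052.

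**Figure D4:**
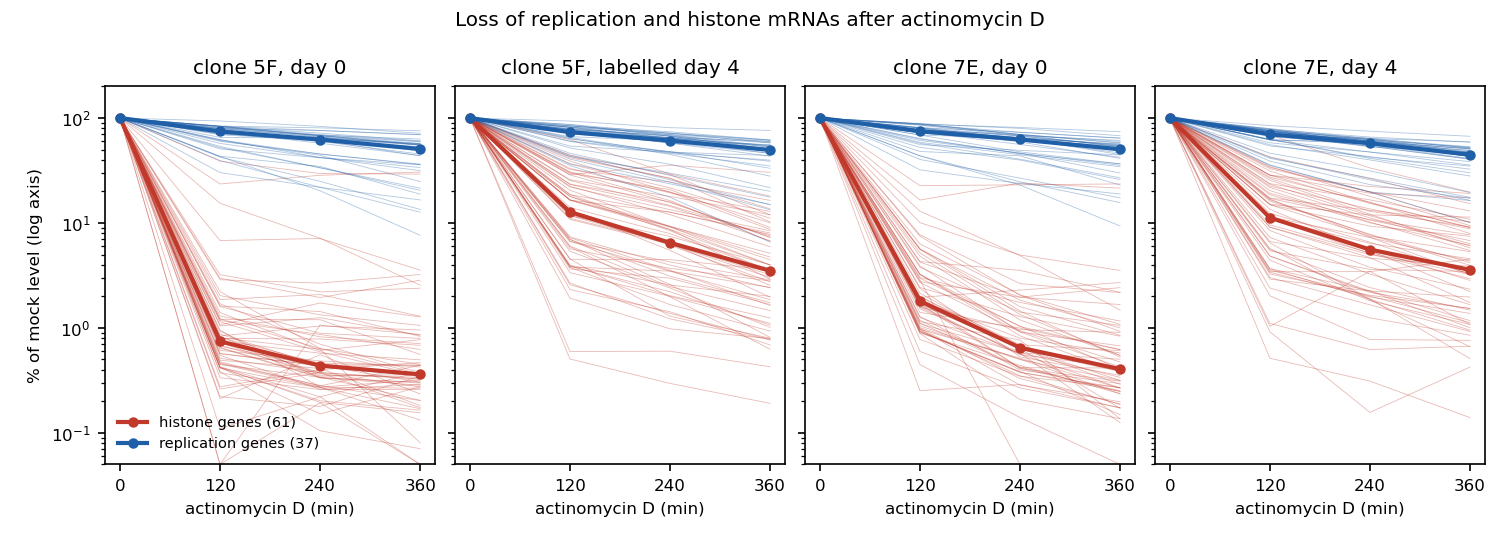
Share of the mock level left, in % on a log axis, against min of actinomycin D for 37 replication mRNAs (blue) and 61 histone genes (red) in the 4 clone and day sets, with thin lines for genes and thick lines for medians, and values under 0.05% drawn at 0.05%. The blue medians stay between 69.9% and 74.7% at 120 min in all 4 panels, while the red medians are at 0.742% and 1.80% at day 0 and at 12.7% and 11.2% at day 4 or labelled day 4.

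Between the clones at day 0, the decay of 0 of the 37 replication mRNAs differed by edgeR, DESeq2 or limma, and 4 had an unadjusted p under 0.05. Over all 18623 genes, 0.0376% were called slower in clone 7E and 0.00537% faster, and 886 had an unadjusted p under 0.05. The loading and firing factors had a median of 0.031 log2 per hour there and Cdc6 the largest value, 0.083 (SE 0.033, edgeR adjusted p = 0.832). The difference between the clones in the day 4 change of decay was called for 0 of the 37 by edgeR, DESeq2 or limma, with 1 unadjusted p under 0.05, and for 0.0% of all genes in either direction. The histone genes likewise had 0 calls in both comparisons by the 3 tools, with 5 and 4 unadjusted p under 0.05. For the difference in the day 4 change, 493 of all 18623 genes had an unadjusted p under 0.05.

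CRAC maps RNA fragments that UV crosslinks to a tagged protein, and the deposited ratios to MTR4, SKIV2L and XRN1 sum to 1 for each mRNA, so a high value for a protein lowers the others. The ratios are pooled over libraries by the authors, so they carry no replicate error and are given as a description. The replication mRNAs had a median SKIV2L ratio of 0.401, between that of all 7240 mRNAs (0.267) and that of 50 histone mRNAs (0.534), and 30 of the 37 lay above the median of all. The 20 mitotic genes described below had a median of 0.396, with 20 above the median of all, and 49 other replication genes one of 0.317. A ratio of this size was thus not particular to the 37. The 37 differed from the histone mRNAs mostly in XRN1, with a median ratio of 0.360 against 0.178, where all mRNAs had 0.337. Their median MTR4 ratio was 0.243, against 0.244 for the histone and 0.319 for all mRNAs. SKIV2L was the largest of the 3 ratios in 20 replication mRNAs, XRN1 in 12 and MTR4 in 5, against 1915, 2762 and 2563 of the 7240 mRNAs and 36, 3 and 11 of the 50 histone mRNAs.

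A SKIV2L ratio over 0.5 was held by 6 of the 37, against 11.8% of all mRNAs. These were Tyms (0.713), the thymidylate synthase, Pold1 (0.632), Chaf1b (0.593), Mcm4 (0.550), Rrm1 (0.541) and Mcm2 (0.507), and just under the threshold lay Mcm3 (0.499) and Fen1 (0.498). An XRN1 ratio over 0.5 was held by Gins1 (0.527) and Gins3 (0.507), against 17.3% of all mRNAs, and an MTR4 ratio over 0.5 by Rfc4 (0.520), against 20.4%. At the low end of SKIV2L were Gins1 (0.136), Ccne2 (0.140) and Gins3 (0.149). The helicase subunits Mcm2 to Mcm7 lay between 0.411 and 0.550 for SKIV2L, while Pcna had 0.232 and Ccne1 0.284. The AVEN value, set relative to the same sum, had a median of 0.264 in the 37, 0.436 in the histone and 0.295 in all mRNAs, with Chaf1b highest among the 37 at 0.768 and Pole next at 0.573.

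Tyms, Pold1, Chaf1b, Mcm4 and Rrm1 reached the histone median of SKIV2L binding, and their decay values are set beside it. Their day 4 changes in slope lay between -0.034 and 0.023 log2 per hour in clone 5F and between -0.044 and 0.010 in clone 7E, and none passed the edgeR test. In mock levels Rrm1 fell in both clones, Pold1 rose in both, Tyms had log2 differences of 0.031 and 0.032 that did not pass the test, and Mcm4 and Chaf1b passed the test in clone 7E alone, with -0.18 and -0.25. The difference between the clones did not pass the edgeR test for Mcm4 (-0.12, adjusted p = 0.190) or for Chaf1b (-0.18, adjusted p = 0.0858). Over the 37, the Spearman correlation of the SKIV2L ratio with the half-life in clone 5F at day 0 was 0.13 and that of the XRN1 ratio -0.31, as descriptions over mRNAs that share libraries.

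**Figure D5:**
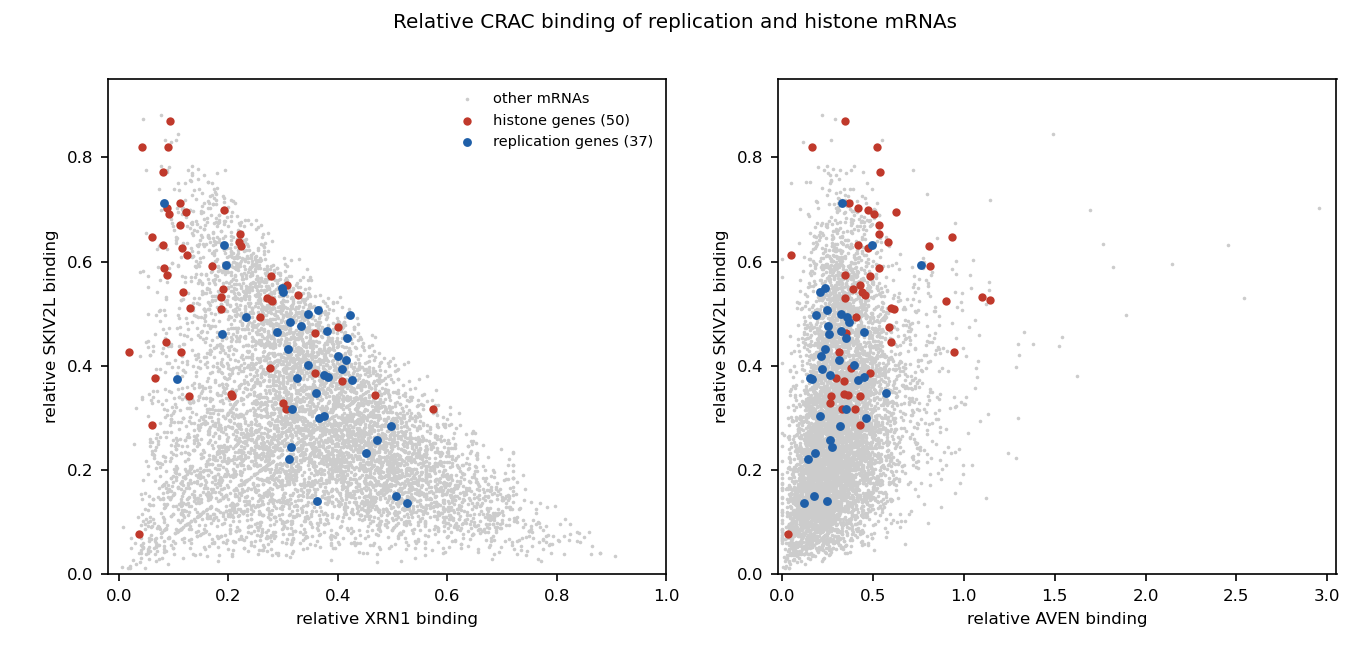
Relative SKIV2L binding against relative XRN1 binding, left, and relative AVEN binding, right, for 37 replication mRNAs (blue), 50 histone mRNAs (red) and the other mRNAs of 7240 (grey), as the authors' pooled ratios without error. The replication mRNAs sit at a median of 0.401 for SKIV2L and 0.360 for XRN1, against histone medians of 0.534 and 0.178, and the 2 clouds overlap.

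Other genes of replication and S phase, a further list of 51 that includes origin complex, checkpoint and E2F genes, were called lower more often than higher in mock cells. In clone 5F 19 of them fell and 1, Ticrr, rose, against 11.6% and 12.8% over all genes, with a median log2 difference of -0.095. In clone 7E 25 fell and Dbf4 and Chtf18 rose, against 19.4% and 20.7% over all genes, with a median of -0.14, and under each library's own ERCC total the shift of all genes given above applies to them too. Ticrr, Dbf4 and Chtf18 are named here after their values were seen. Slbp, which binds the histone stem-loop, fell in both clones, from 3508, 3188 and 3362 normalised counts to 2934, 2907 and 2855 in clone 5F and from 3294, 3248 and 3480 to 3012, 3095 and 2781 in clone 7E. The groups did not overlap in either clone, and the log2 differences were -0.21 (edgeR adjusted p = 0.00285) and -0.17 (edgeR adjusted p = 0.0107). Its call was lost in each clone without replicate 1 or replicate 3. The S-phase cyclin gene Ccna2 had differences of -0.14 in both clones (edgeR adjusted p = 0.0329 and 0.0127). E2f1, an activator of the replication genes, had -0.19 in clone 5F (edgeR adjusted p = 0.0881) and -0.33 in clone 7E (edgeR adjusted p = 0.00198). In decay, 0 of the 51 were called in either clone by edgeR, DESeq2 or limma, with 0 unadjusted p under 0.05 in clone 5F and 5 in clone 7E, and the medians were 0.00472 and -0.00891 log2 per hour.

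Among 20 mitotic genes, which act later in the cycle, 6 fell and 2, Cenpe and Plk1, rose in clone 5F, and 5 (Aurkb, Bub1b, Ccnb2, Mad2l1 and Ttk) fell and 2, Cenpe and Nusap1, rose in clone 7E, under the size factors and with the shift given above under the ERCC totals. The shares over all genes were 11.6% lower and 12.8% higher in clone 5F and 19.4% and 20.7% in clone 7E, and the mitotic counts of clone 7E lie near the share called lower. These genes are named after their values were seen. Their median mock differences were -0.053 and 0.040. In decay 0 were called in either clone by edgeR, DESeq2 or limma, with 0 and 1 unadjusted p under 0.05. Their median changes in slope were 0.00308 log2 per hour in clone 5F and -0.021 in clone 7E. In clone 7E 4 of the 20 lay above 0, so the lean towards faster loss there was not particular to the replication mRNAs. The difference between the clones in the mock change was called for 0 of these 20 by the 3 tools, with 5 unadjusted p under 0.05. For that difference 4207 of all 17209 genes had an unadjusted p under 0.05.

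The promoters held a feature that the choice of genes did not use. An E2F motif (TTTCCCGC, TTTCGCGC, TTTGCCGC or TTTGGCGC, on either strand) lay in the 300 bases around the start site, from RefSeq on GRCm38, of 12 of the 30 replication genes with a promoter entry (40.0%). The same letters were in 34.1% of 41 other replication and S-phase regulator genes, in 5.88% of 17 mitotic genes and in 2.6% of all 27025 promoters. Members with the motif included Mcm3, Mcm5, Mcm6, Mcm7, Cdc6 and Cdt1, whose day 4 differences in mock cells had either sign. A match is a description of the letters and not of binding.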

How the data were processed

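RNA was depleted of rRNA and sequenced as unstranded libraries, so overlapping and antisense genes can share reads. The authors aligned reads with STAR to mm10 with ERCC sequences added, kept unique hits and deposited raw counts per gene (Gencode M16), so near-identical histone genes are uncertain. The authors' deposited ratios are pooled CRAC counts of a protein divided by the sum over MTR4, SKIV2L and XRN1, their deposited RPKM values come from the tagged lines, and a deposited score is the ratio set against RPKM, used here only as alternatives. Columns of the authors' log2 fold changes and adjusted p-values, and their half-lives, were not used. Column names gave the sample of every count column.

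Libraries of the same time point were scaled to each other by DESeq2 size factors, and time points were tied together by spike-in factors of 1, 0.657, 0.538 and 0.441, by which counts were multiplied (the study's methods write of a division). These factors are medians over libraries of the mRNA total over the total of 34 ERCC sequences with a mean above 50. Genes passing filterByExpr were tested with edgeR 4.0.16 (quasi-likelihood test, Benjamini-Hochberg threshold 0.05 over all genes) in R 4.3.3, and the SE is the absolute log2 difference divided by the square root of F. Alternatives used DESeq2 1.42.0, limma 3.58.1, TMM or ERCC totals, no filter, a replicate block, and left-out replicates, mock or 360 min libraries. Half-lives came from lines of ln(normalised count + 1) on time. Transcripts, 3′ ends and coordinates were read from Gencode M21 on GRCm38, a later release of the same build, and promoters from RefSeq. The tests were tested on simulated data. Between replicates the chi-square per degree of freedom was at least 2.43, so no library was counted as a copy of another.

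The members, the lists and the rule for named genes were chosen with earlier results of these data known. That rule named every member past a threshold or, over 10, the 3 largest in each direction, the member with most mock counts in each role, the 3 most abundant histone genes, and Slbp, Ccna2 and E2f1. A further gene of that rule is not reported here.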

Additional observations from a re-analysis of the deposited data

Results flagged for a closer look

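The day 4 change in mock level differed between clone 7E and clone 5F, by the interaction of clone and day in edgeR, for these results. Among the 61 histone genes tested, 28 differed, all with a lower log2 change in clone 7E than in clone 5F. Ccne1 differed by -0.24 on the log2 scale, Hist1h1d by -0.41 and Hist1h1b by -0.31, while Hist1h1a, at -0.063, did not pass the test. Skiv2l itself differed by -1.31, with a log2 change of -1.32 in clone 7E and -0.0099 in the clone 5F libraries labelled day 4. The day 4 mock libraries of clone 7E held 189084 to 200706 ERCC counts, against 88231 to 93255 at day 0, and scaled by these totals the difference for all genes shifted by -1.03. The part of this in the differences was not tested.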

How the results depend on the processing

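Scaling by each library's own ERCC total moved the mock results of clone 7E. There 37 replication mRNAs were called, with a median of -1.19, and Pole (-0.85), Cdt1 (-0.93), Pold1 (-0.93), Hist1h1a (-0.038), Hist1h1d (-0.38) and Hist1h1b (-0.63) turned negative. In clone 5F that median was -0.14, between the clones at day 0 there were 29 calls and a median of -0.20, and for the difference between the clones 37 replication and 61 histone calls and a median of -1.05. In decay the medians were -0.018 (clone 5F), -0.00424 (clone 7E) and 0.011 (difference), at 120 min -0.16 and 0.14, and the day 4 half-life medians were 341 and 352 min. The histone count in decay of clone 5F, 20, was 32 with TMM, 13 with DESeq2 and 0 with limma, and that of clone 7E was 6 with limma. The single replication call in decay of clone 7E became 3 with DESeq2 and 0 with TMM, the ERCC totals, no filter, without the mock libraries and without the 360 min libraries. With no filter the difference between the clones had 2 replication and 43 histone calls. Without the mock libraries 5 histone genes were called faster in decay of clone 5F, opposite to the direction with them, 11 slower in clone 7E, 8 faster between the clones and 5 slower for their difference, Hist1h1a (-0.18), Hist1h1d (-0.38) and Hist1h1b (-0.53) turned negative in clone 5F, and the replication medians were -0.00924 in clone 7E, -0.012 between the clones and 0.00212 for their difference. Without the 360 min libraries the median in clone 7E was -0.033. The cause was not tested.

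Leaving out 1 replicate number at a time gave 4 to 15 replication calls in mock cells of clone 5F with medians of -0.099 to -0.056, 8 to 19 in clone 7E with 25 to 49 histone calls, 11 to 16 between the clones, and 0 to 1 for their difference with 12 to 23 histone calls. In decay it gave 0 replication calls, 2 to 3 histone calls in clone 5F and 5 to 9 in clone 7E, with replication medians of -0.031 to -0.018 there, and a half-life median of 342 to 367 min in the clone 5F libraries labelled day 4.

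The replicate numbers did not pair the libraries: same-numbered mock libraries of the 2 days had deviations with correlations of -0.38 to -0.091 in clone 5F and -0.33 to -0.031 in clone 7E. With the number as a replicate block there were 9 replication calls in mock cells of clone 5F, 17 in clone 7E and 0 in decay of clone 7E. The block changed no other call of a count by over 1.5 times. Of the values for counts and medians over all alternatives, 274 stayed near the reported value and 56 moved. Of those for single genes, 686 kept their side of the threshold, among which uncalled values could change sign, as Hist1h1b did in decay of clone 7E without the mock libraries (0.49 to -0.043). A further 49 lost the call, 13 gained one and 9 called values reversed.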
